A study of Homo sapiens with 16 samples.

Results

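The collagen genes are the 44 protein-coding genes whose symbol is COL, a number, A and a number, from COL1A1 to COL28A1, and all of them were found by Ensembl gene ID in the count and TPM tables. They were followed in 16 bulk RNA-Seq libraries of MDA-MB-231 and MDA-MB-436, human triple-negative breast cancer lines described as mesenchymal. Both lines were stably transfected with the 7TGP plasmid, in which Tcf/Lef binding sites drive eGFP, kept under puromycin selection, and sorted repeatedly by eGFP into Wnt-reporter-negative (7TGP-NEG) and Wnt-reporter-positive (7TGP-POS) sublines, so that every group carries the reporter. Each subline was grown in low serum (0.5% FBS, harvested on day 3) or standard serum (10% FBS, day 6), with 2 biological replicates in each of the 8 groups. The replicates and serum conditions of a subline were cultures of the same sorted population. The p-values therefore do not measure the spread between independent sorts. The sublines are sorted populations of established lines in plastic culture with no stromal cells added, and changes in the sorted cell mixture and changes in RNA per cell cannot be told apart. Serum level, days in culture, library preparation, sequencer and read length changed together, so the serum conditions cannot be told apart from these and were not tested against each other. The study's methods give a DMEM mixture for the MDA-MB-231 sublines and RPMI for the MDA-MB-436 sublines, so line and medium cannot be told apart. The libraries held 27918418 to 46044073 counts on genes. Of the 44 members, 42 had 10 or more counts summed over the 8 low serum libraries and 40 over the 8 standard serum libraries, and these were tested. COL6A5 and COL10A1 were below that minimum in both conditions, and COL6A6 and COL9A1 in standard serum only, so nothing can be said at this depth about their change there.

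Collagens are triple-helical proteins of the extracellular matrix, each built from 3 alpha chains that are folded in the endoplasmic reticulum, hydroxylated, secreted, trimmed and crosslinked. Fibrillar collagens (types I, II, III, V, XI, XXIV and XXVII) form fibers, type IV forms the sheet of basement membranes, type VI forms beaded filaments around cells, and type VII forms fibrils that anchor epithelium. Fibril-associated collagens with interrupted triple helices (FACIT, such as types IX, XII, XIV, XVI and XXII) decorate fibers or tissue borders, transmembrane collagens (XIII, XVII, XXIII and XXV) sit in the cell surface, and multiplexins (XV and XVIII) lie at basement membranes. In breast tumors most fibrillar collagen is made by fibroblasts, and carcinoma cells add basement membrane and pericellular collagens.

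The markers of the labelled cells were mixed. Of 5 mesenchymal markers, VIM was at 659 to 5044 CPM (gene counts scaled to the library total), while CDH2 was at most 1.55 CPM in MDA-MB-231. Of 5 epithelial markers, CDH1 stayed under 1 CPM in every library, but KRT8 was at 258 to 731 CPM, and the list summed to 525 to 953 CPM. Some markers moved with the sublines. VIM was called lower in MDA-MB-231 7TGP-POS (log2 fold change -1.05 ± 0.05, adjusted p = 2.69e-20 in low serum and -1.03 ± 0.08, adjusted p = 1.17e-08 in standard serum), as was FN1 in standard serum (-2.14 ± 0.10, adjusted p = 3.75e-11). In MDA-MB-436 7TGP-POS, FN1 was called higher in low serum (1.37 ± 0.05, adjusted p = 1.42e-24) and AXL in standard serum (1.12 ± 0.08, adjusted p = 1.34e-09). The part of these markers in the collagen results was not tested. The summed CPM of the estrogen and progesterone receptor genes was 0 to 1.16. The 6 fibroblast markers summed to 0.579 to 18.9 CPM per library, with DCN and THY1 under 1 CPM in every library. Of these, FAP was at 13.9 to 17.8 CPM in the negative MDA-MB-436 libraries and 4.30 to 8.25 CPM in the positive ones, while POSTN was at 0 and at 0.109 to 1.14 CPM. These markers went in opposite directions, and their part in the collagen results was not tested. The 2 endothelial markers summed to 0.152 to 1.81 CPM and the 3 leukocyte markers to 0.11 to 9.42 CPM, the latter mostly PTPRC in MDA-MB-231.

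The first question was which collagens these cells express. Levels are compared between genes in TPM (scaled by gene length and library total), as the authors deposited it. In low serum the TPM summed over all members was 811 ± 0.615 (mean ± SD, n = 2) for the negative and 807 ± 98.2 for the positive subline of MDA-MB-231, and 808 ± 65.0 for the negative and 942 ± 125 for the positive subline of MDA-MB-436. In standard serum it was, in the same order, 1167 ± 65.5 and 1129 ± 8.85, and 850.2 ± 85.2 and 951 ± 148. The positive and negative libraries of a line overlapped in summed TPM in all 4 comparisons. In standard serum MDA-MB-231 the overlap rested on COL13A1, the highest member there. Without it the sums were 702 and 634.5 TPM in 7TGP-NEG and 804 and 790 TPM in 7TGP-POS. In the other comparisons the libraries still overlapped without each group's highest member. Between 16 and 25 members reached 1 TPM in both libraries of a group in low serum and between 17 and 23 in standard serum, and 10 to 12 reached 10 TPM.

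**Figure D1:**
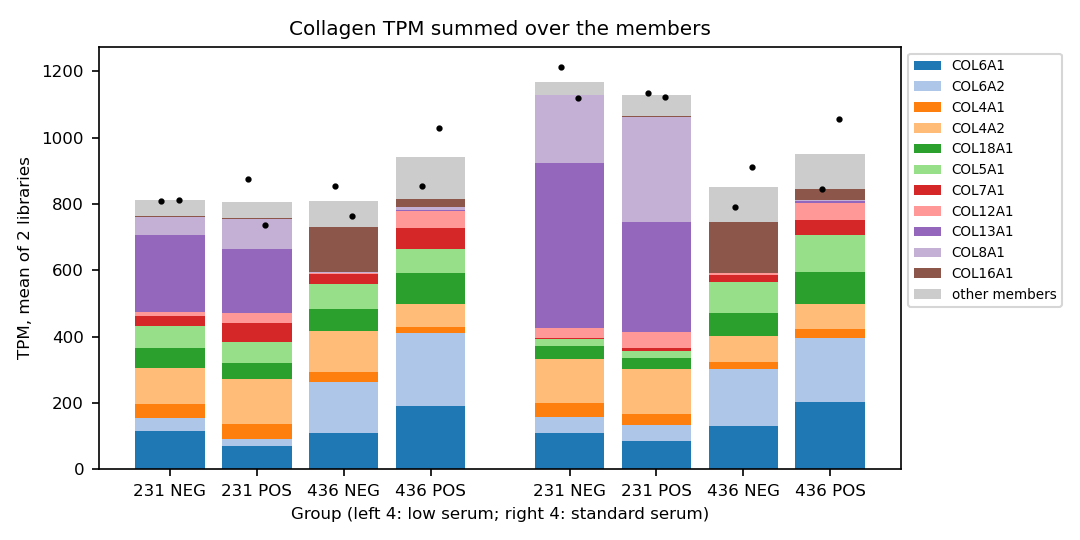
Stacked bars of collagen TPM (mean of 2 libraries) in the 8 groups, low serum at left and standard serum at right, with black points for the total of each library. COL13A1 and COL8A1 fill much of the MDA-MB-231 bars, and COL6A1, COL6A2 and COL16A1 much of the MDA-MB-436 7TGP-NEG bars.

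In MDA-MB-231, COL13A1, a transmembrane collagen of cell-matrix adhesions, was the highest member. It had 233 ± 0.262 TPM in 7TGP-NEG and 194 ± 22.4 TPM in 7TGP-POS in low serum, and 498 ± 17.6 and 332 ± 0.382 TPM in standard serum. COL8A1, the alpha 1 chain of the short-chain network collagen VIII, was next in standard serum with 204 ± 12.3 and 318 ± 12.7 TPM. In the MDA-MB-436 groups both genes were low, at 0.490 ± 0.0849 TPM for COL13A1 and 2.15 ± 0.0495 TPM for COL8A1 in low serum 7TGP-NEG. There the leading members were COL6A2 with 153 ± 9.06 TPM, the FACIT gene COL16A1 with 134 ± 15 TPM and the basement membrane gene COL4A2 with 123 ± 6.59 TPM. The libraries of COL16A1 and COL4A2 overlapped in level. COL1A1 and COL3A1, which lead in fibroblasts, stayed under 10 TPM in all 16 libraries, and COL1A2, the partner chain of COL1A1, had no more than 1.17 CPM in any library.

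**Figure D2:**
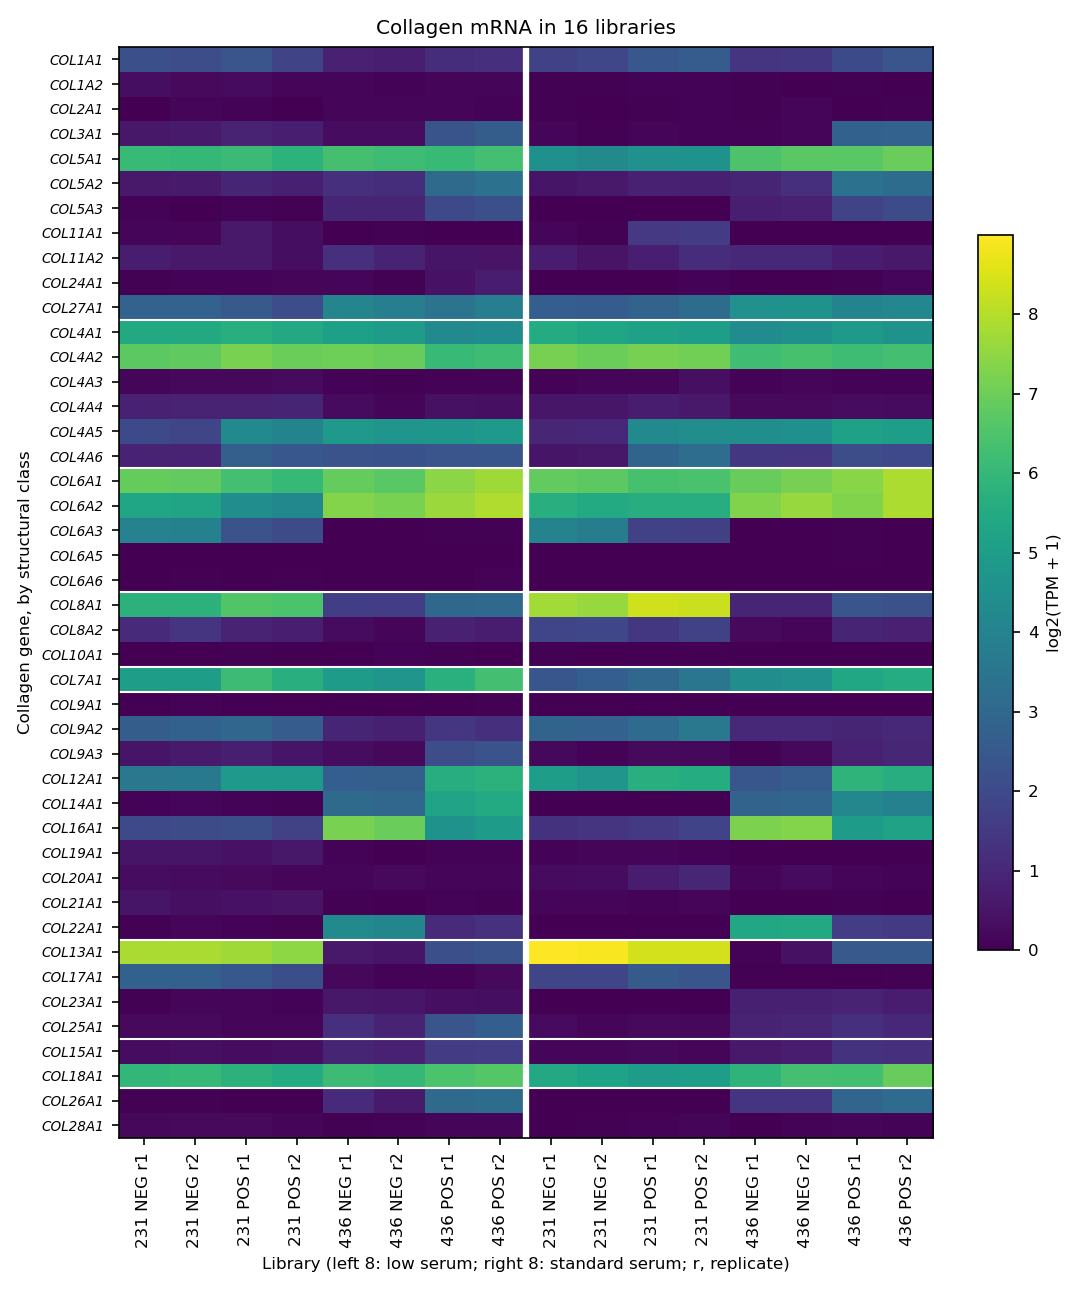
Heatmap of log2(TPM + 1) for the 44 members (rows, by structural class) in the 16 libraries (columns, low serum at left and standard serum at right). COL13A1 and COL8A1 are bright in the MDA-MB-231 columns, and COL16A1 and COL22A1 are brightest in MDA-MB-436 7TGP-NEG.

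The 7TGP-NEG sublines of the lines were compared to show the levels in reporter-negative cells of each line, each in its own medium. A gene is called where its adjusted p (Benjamini-Hochberg over all genes tested, edgeR's quasi-likelihood test) is under 0.05 and its fold at least 2. In low serum 28 of 42 members were called, against 41.9% of all genes tested. Of these, 17 were higher in MDA-MB-231 (background 20.5%) and 11 lower (background 21.4%). In standard serum 27 of 40 were called, against 46.7% of all genes, with 12 higher (21.3%) and 15 lower (25.4%) in MDA-MB-231. A compared group held 3 counts or fewer per library in 5 of the low serum calls and 10 of the standard serum calls. Of the members called lower, COL5A3, COL14A1, COL22A1, COL23A1 and COL26A1 had 0 counts in all standard serum MDA-MB-231 libraries. They passed the count minimum through MDA-MB-436 only, which fixed the direction of these calls.

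The cell line gaps were widest for a few members. COL13A1 was at 554 and 548 CPM in the MDA-MB-231 and 1.01 and 0.873 CPM in the MDA-MB-436 low serum 7TGP-NEG libraries (log2 fold change 9.28 ± 0.09, adjusted p = 2.14e-46). COL6A3, whose chain joins those of COL6A1 and COL6A2 in type VI collagen, was at 119 and 114 against 0.0918 and 0 CPM, at least 1182-fold higher in MDA-MB-231 when the MDA-MB-436 libraries are set to a floor of 3 counts each. In the other direction, COL22A1, a FACIT of tissue junctions, was at 86.7 and 88.4 CPM in the MDA-MB-436 standard serum libraries and at 0 (both) in MDA-MB-231, at least 989-fold. COL14A1, a FACIT that binds fibril surfaces, was at 14.98 and 15.6 CPM against 0 (both), a gap of at least 173-fold. The bounds cover counting error only. COL16A1 was lower in MDA-MB-231 by the test in both conditions (log2 fold change -5.00 ± 0.08, adjusted p = 4.64e-23 in low serum). COL5A1, the main chain of type V collagen, was at 301 and 279 and 285 and 279.6 CPM in low serum and was not called (log2 fold change 0.14 ± 0.05, adjusted p = 0.0106). In standard serum it was called lower in MDA-MB-231, at 64.0 and 57.4 against 273 and 309 CPM (log2 fold change -2.05 ± 0.09, adjusted p = 4.15e-12).

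The main comparison was 7TGP-POS with 7TGP-NEG within each line. Both sublines were sorted from the same transfected population. Rose, fell and change therefore describe 7TGP-POS relative to 7TGP-NEG, not a course over time. In MDA-MB-231 the basement membrane pair COL4A5 and COL4A6 rose in both serum conditions and COL6A3 fell in both. In low serum 6 of 42 members were called, against 5.90% of all genes tested. Of these, 5 rose (COL4A5, COL4A6, COL11A1, COL12A1 and COL7A1, background 3.50%) and COL6A3 fell (background 2.40%). In standard serum 5 of 40 were called, against 7.69% of all genes. COL4A5, COL4A6, COL11A1 and COL20A1 rose (background 4.96%) and COL6A3 fell (background 2.72%). Over the tested members the median log2 fold change was 0.16 (low serum) and 0.41 (standard serum), beside -0.014 and 0 over all genes. COL5A3, COL14A1, COL22A1, COL23A1 and COL26A1 had 0 counts in all standard serum MDA-MB-231 libraries. They are among the 40 and in the standard serum median, but could not be called there. Without replicate 1 of MDA-MB-231 7TGP-POS, 8 members were called in standard serum, with COL4A3, COL7A1 and COL11A2 added.

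COL4A5 and COL4A6 encode the alpha 5 and alpha 6 chains of type IV collagen, which assemble together in some basement membranes. They lie head to head on chromosome X, COL4A5 at chrX:107683068-107940775 (+) and COL4A6 at chrX:107398837-107682727 (-) (GRCh37). COL4A5 was at 10.9 and 9.48 CPM in the low serum 7TGP-NEG libraries of MDA-MB-231 and at 70.3 and 67.0 CPM in 7TGP-POS (log2 fold change 2.76 ± 0.07, adjusted p = 9.62e-30). In standard serum it was at 2.21 and 2.42 and 43.98 and 48.7 CPM (log2 fold change 4.27 ± 0.11, adjusted p = 3.54e-15). COL4A6 followed at 3.49 and 3.54 and 24.3 and 21.7 CPM in low serum (log2 fold change 2.72 ± 0.11, adjusted p = 2.75e-23). Its standard serum values were 1.08 and 1.29 and 17.2 and 22.4 CPM (log2 fold change 4.02 ± 0.17, adjusted p = 4.33e-12). All 7TGP-POS libraries lay above all 7TGP-NEG libraries for both genes, and in low serum the fold changes of the pair differed by less than their standard errors. In standard serum they differed by more than either standard error, with COL4A5 the higher. The COL4A5 levels of MDA-MB-231 7TGP-POS came near those of MDA-MB-436 7TGP-NEG, which had 76.3 and 74.7 CPM in low serum. In MDA-MB-436 neither gene was called. COL4A5 had a log2 fold change 0.28 ± 0.06, adjusted p = 5.51e-05 in low serum and a log2 fold change 0.51 ± 0.08, adjusted p = 5.33e-05 in standard serum, past the p threshold but under a fold of 2. COL4A6 was at 4.80 and 4.55 and 8.86 and 7.88 CPM there in standard serum (log2 fold change 0.79 ± 0.14, adjusted p = 0.000185), and in low serum it had a log2 fold change 0.38 ± 0.09, adjusted p = 0.000552. The 50 tested genes nearest to COL4A5 on the chromosome had median log2 fold changes of 0.53 (low serum) and 0.76 (standard serum) in MDA-MB-231, above the median of all genes, and the part of this in the change of the pair was not tested.

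The start sites of COL4A5 and COL4A6 are 380 bases apart in the RefSeq annotation, so their promoter windows (250 bases before to 50 after the start, GRCh38.p14) share 121 bases. The windows are shown because the pair rose together and shares this stretch. Each is written 5′ to 3′ on its own gene's strand, and capitals mark the bases that both windows hold. COL4A5 is on the plus strand at chrX:108439588-108439887 and COL4A6 on the minus strand at chrX:108439409-108439708, the latter being 1 of 2 windows listed for that gene.
COL4A5: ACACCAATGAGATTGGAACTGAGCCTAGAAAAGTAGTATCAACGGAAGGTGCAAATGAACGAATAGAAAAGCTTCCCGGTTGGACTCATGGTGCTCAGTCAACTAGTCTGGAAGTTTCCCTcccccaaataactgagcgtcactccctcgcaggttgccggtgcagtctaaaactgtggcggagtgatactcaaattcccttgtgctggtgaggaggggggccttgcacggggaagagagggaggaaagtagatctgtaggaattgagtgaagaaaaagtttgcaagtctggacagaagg
COL4A6: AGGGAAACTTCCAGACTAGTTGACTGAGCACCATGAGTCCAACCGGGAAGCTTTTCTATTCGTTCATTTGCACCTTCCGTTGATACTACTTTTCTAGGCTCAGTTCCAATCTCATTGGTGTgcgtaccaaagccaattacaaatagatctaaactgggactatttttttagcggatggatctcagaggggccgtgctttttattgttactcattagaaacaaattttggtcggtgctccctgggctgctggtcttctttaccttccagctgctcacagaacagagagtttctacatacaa

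The neighbouring type IV pair, COL4A1 and COL4A2, has the same arrangement on chromosome 13, with starts 127 bases apart and 226 shared bases, and is shown for comparison because neither gene was called in any of the 4 comparisons. COL4A1 is at chr13:110307108-110307407 on the minus strand and COL4A2 at chr13:110307034-110307333 on the plus strand.
COL4A1: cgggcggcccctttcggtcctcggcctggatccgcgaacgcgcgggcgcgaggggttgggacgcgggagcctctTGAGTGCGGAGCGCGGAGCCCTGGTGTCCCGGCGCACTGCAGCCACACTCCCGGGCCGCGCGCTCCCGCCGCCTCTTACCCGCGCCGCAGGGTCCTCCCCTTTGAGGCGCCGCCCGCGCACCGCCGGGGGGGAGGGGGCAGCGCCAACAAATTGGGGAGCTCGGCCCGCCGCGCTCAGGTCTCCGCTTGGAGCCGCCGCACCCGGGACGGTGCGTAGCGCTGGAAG
COL4A2: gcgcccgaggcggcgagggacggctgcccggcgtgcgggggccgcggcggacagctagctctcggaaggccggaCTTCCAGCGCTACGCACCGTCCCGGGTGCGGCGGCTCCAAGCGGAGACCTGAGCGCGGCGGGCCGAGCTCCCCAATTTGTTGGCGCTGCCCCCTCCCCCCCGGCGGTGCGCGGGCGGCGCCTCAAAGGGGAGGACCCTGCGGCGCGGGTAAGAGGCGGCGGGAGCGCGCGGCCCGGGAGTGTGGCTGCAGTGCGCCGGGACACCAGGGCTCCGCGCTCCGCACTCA

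The windows of the pairs differ in base composition, with 49.3% and 43.7% G and C for COL4A5 and COL4A6 and 76.7% and 77.7% for COL4A1 and COL4A2. The letters TCAAAG, the core of the Tcf/Lef motif, were searched on both strands. They were in 10 of the 44 collagen windows found in the table (22.7%, from 9 of 32 genes) and in 12.9% of all windows of that length. Windows of COL4A1, COL4A2, COL13A1, COL26A1, COL24A1, COL28A1, COL11A2, COL9A1 and COL10A1 held it, and those of COL4A5 and COL4A6 did not. The COL4A1 and COL4A2 windows hold the same site, read on opposite strands within their shared bases, and it was counted for each gene. The longer ATCAAAG, which contains it, was in 0 of 44 collagen windows and 2.62% of all windows. These are matches of letters within 300 bases only.

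COL4A1 and COL4A2 encode the main chains of type IV collagen. COL4A2 was at 337 and 347 CPM in 7TGP-NEG and 499 and 483 CPM in 7TGP-POS in low serum MDA-MB-231 (log2 fold change 0.53 ± 0.05, adjusted p = 3.72e-12). In MDA-MB-436 it was at 317 and 319 and 218 and 217 CPM (log2 fold change -0.56 ± 0.05, adjusted p = 4.67e-13). Neither reached a fold of 2, but the directions were opposite and the difference between the lines did (log2 fold change 1.09 ± 0.07, adjusted p = 4.65e-17). In standard serum COL4A2 differed by a log2 fold change 0.00 ± 0.08, adjusted p = 1 in MDA-MB-231 and log2 fold change -0.16 ± 0.08, adjusted p = 0.0888 in MDA-MB-436. The annotated spans of COL4A1 and COL4A2 overlap on opposite strands, and whether counting used strand is not given in the sources used here.

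The other MDA-MB-231 calls were in the fibrillar, FACIT and anchoring fibril classes. COL11A1, a minor fibrillar chain that helps set fibril diameter, was at 0.221 and 0.0943 CPM in standard serum 7TGP-NEG and 4.03 and 4.41 CPM in 7TGP-POS (log2 fold change 4.63 ± 0.36, adjusted p = 2.5e-08). In low serum its values were 0.261 and 0.334 and 1.90 and 1.09 CPM (log2 fold change 2.33 ± 0.41, adjusted p = 8.77e-06). These are low levels, but the positive libraries were above the negative ones in each condition. COL20A1, a FACIT gene, rose in standard serum from 0.552 and 0.691 to 1.78 and 2.79 CPM (log2 fold change 1.83 ± 0.33, adjusted p = 0.000248), and in low serum it was at 1.01 and 0.901 and 0.835 and 0.599 CPM, not called (log2 fold change -0.40 ± 0.33, adjusted p = 0.379). COL7A1, the anchoring fibril collagen, was at 146 and 143 CPM in low serum 7TGP-NEG and at 343 and 263 CPM in 7TGP-POS (log2 fold change 1.07 ± 0.20, adjusted p = 0.0147). The COL7A1 call was lost without 7TGP-NEG replicate 1 (adjusted p = 0.0799, edgeR), without 7TGP-NEG replicate 2 (adjusted p = 0.0839) and without 7TGP-POS replicate 1 (adjusted p = 0.0547).

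COL6A3 fell in MDA-MB-231 7TGP-POS in both conditions. Its values were 119 and 114 CPM against 33.8 and 31.1 CPM in low serum (log2 fold change -1.83 ± 0.06, adjusted p = 3.16e-25). In standard serum they were 78.0 and 66.9 against 12.1 and 11.9 CPM (log2 fold change -2.65 ± 0.11, adjusted p = 3.01e-12). COL6A1 and COL6A2, its partner chains, were lower by less than a factor of 2 in low serum (log2 fold change -0.51 ± 0.05, adjusted p = 5.02e-11 and log2 fold change -0.79 ± 0.06, adjusted p = 2.5e-15). In standard serum COL6A1 had a log2 fold change -0.43 ± 0.15, adjusted p = 0.0682 and COL6A2 a log2 fold change -0.02 ± 0.22, adjusted p = 1.

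In MDA-MB-436 most of the called collagens rose, and in low serum every structural class had at least 1 call. In low serum 24 of 42 members were called, against 10.5% of all genes tested. Of these, 21 rose (background 6.52%) and 3 fell, COL16A1, COL22A1 and COL11A2 (background 4.03%). In standard serum 14 of 40 were called, against 12.5% of all genes. There 12 rose (background 6.47%) and COL16A1 and COL22A1 fell (background 6.06%). Over the tested members the median log2 fold change was 1.05 (low serum) and 0.47 (standard serum), beside 0.014 and 0.0047 over all genes. All 14 members called in standard serum were among the 24 called in low serum (58.3% of the low serum calls), each in the same direction. Over all genes, 57.1% of the standard serum calls were also low serum calls in that direction (65.2% of the low serum calls). Leaving out each library in turn gave 20 to 24 calls in low serum and 13 to 16 in standard serum, and limma-trend on log2(TPM + 1) gave 13 in low serum.

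**Figure D3:**
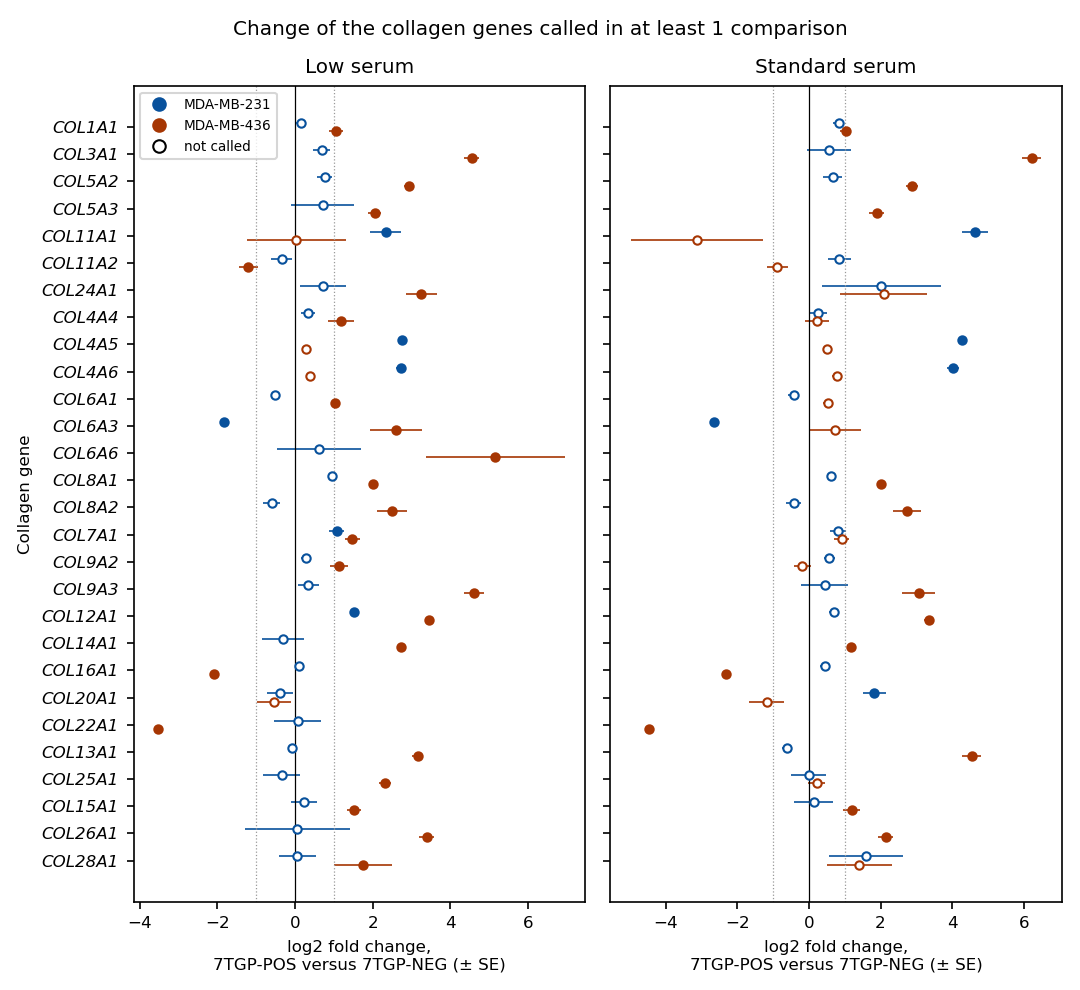
Log2 fold change (± SE) of 7TGP-POS against 7TGP-NEG for the 28 members called in at least 1 of the 4 comparisons, with filled points for called values, open points for others and dotted lines at a fold of 2. Gene and line combinations with no counts in either group are not drawn. In MDA-MB-436 (orange) COL3A1, COL5A2, COL12A1, COL13A1 and COL8A1 lie to the right and COL16A1 and COL22A1 to the left in both panels, and in MDA-MB-231 (blue) COL4A5 and COL4A6 lie to the right.

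Of the fibrillar collagens, COL3A1 and COL5A2 rose most among members seen at 5 CPM or more. COL3A1 encodes type III collagen, which forms fine fibers with type I, and COL5A2 a chain of type V, which joins COL5A1 inside fibrils. COL3A1 was at 0.490 and 0.559 CPM in 7TGP-NEG and 11.4 and 13.7 CPM in 7TGP-POS in low serum (log2 fold change 4.56 ± 0.19, adjusted p = 1.07e-22). Its standard serum libraries were at 0.118 and 0.153 and 10.8 and 11.0 CPM (log2 fold change 6.22 ± 0.27, adjusted p = 2.54e-12). COL5A2 was at 3.09 and 3.07 and 22.6 and 25.2 CPM in low serum (log2 fold change 2.94 ± 0.12, adjusted p = 1.66e-23). Its standard serum values were 1.78 and 2.55 and 17.9 and 15.4 CPM (log2 fold change 2.88 ± 0.17, adjusted p = 1.77e-10). Neither gene was near overlap between the groups. They are neighbours on chromosome 2 that point at each other, COL3A1 at chr2:189839099-189877472 (+) and COL5A2 at chr2:189896624-190090038 (-) (GRCh37). The 50 genes nearest to COL3A1 had a median log2 fold change of -0.27 in low serum, and the part of the neighbourhood in the change of the pair was not tested. COL5A1, in contrast, had a log2 fold change 0.15 ± 0.05, adjusted p = 0.0104 in low serum and a log2 fold change 0.16 ± 0.09, adjusted p = 0.16 in standard serum.

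COL5A3, a further type V chain, rose from 1.99 and 2.17 to 8.31 and 9.06 CPM in low serum (log2 fold change 2.05 ± 0.16, adjusted p = 4.3e-14) and from 1.24 and 1.43 to 4.58 and 5.84 CPM in standard serum (log2 fold change 1.89 ± 0.22, adjusted p = 2.12e-06). COL1A1, the main chain of type I collagen, rose from 2.39 and 2.30 to 5.02 and 4.84 CPM in low serum (log2 fold change 1.06 ± 0.18, adjusted p = 5.93e-06). In standard serum its values were 4.29 and 4.65 and 8.08 and 11.0 CPM (log2 fold change 1.02 ± 0.15, adjusted p = 2.8e-05). Both COL1A1 values lay close to a fold of 2. The standard serum call was lost with DESeq2 size factors (0.9995), without 7TGP-NEG replicate 1 (0.97) and without 7TGP-POS replicate 2 (0.80), all log2 fold changes, and the low serum call without 7TGP-POS replicate 1 (0.96). COL24A1 rose in low serum from 0.245 and 0.105 to 1.42 and 2.15 CPM (log2 fold change 3.26 ± 0.41, adjusted p = 8.53e-09), and COL11A2 fell from 2.88 and 1.99 to 1.14 and 1.00 CPM (log2 fold change -1.20 ± 0.26, adjusted p = 0.000116). COL1A2, COL2A1, COL11A1 and COL27A1 were not called in MDA-MB-436.

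**Figure D4:**
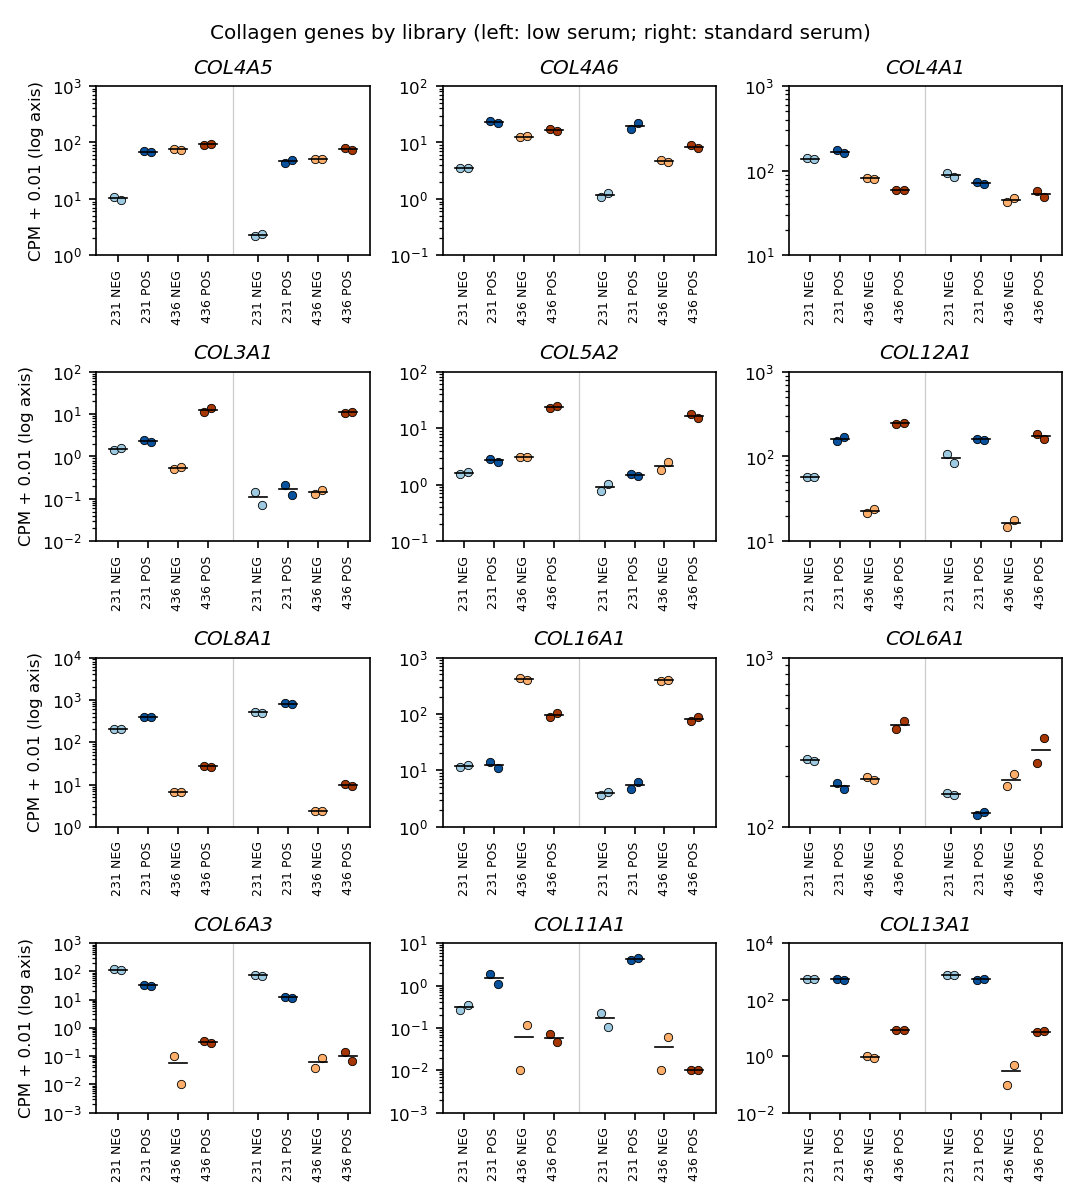
CPM (plus 0.01, log axis) of 12 members in each library, low serum at left and standard serum at right of the grey line, with points for libraries and black bars for group means. Replicates lie close together beside the gaps between groups, for COL4A5 and COL4A6 in MDA-MB-231 and for COL3A1, COL5A2, COL12A1, COL8A1 and COL16A1 in MDA-MB-436. For COL13A1 in MDA-MB-436 they do so in low serum, but the standard serum 7TGP-NEG replicates lie apart, at 0.0888 and 0.485 CPM.

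The FACIT genes changed in both directions. COL12A1, which links fibrils to their surroundings, rose from 21.3 and 23.8 to 244 and 251 CPM in low serum (log2 fold change 3.44 ± 0.07, adjusted p = 6.38e-28). In standard serum it rose from 14.9 and 17.6 to 186 and 159.7 CPM (log2 fold change 3.35 ± 0.14, adjusted p = 9.01e-08). It also rose in low serum MDA-MB-231, from 57.1 and 57.8 to 154 and 171 CPM (log2 fold change 1.51 ± 0.06, adjusted p = 3.04e-19). By TPM it went from 5.49 ± 0.106 to 50.4 ± 4.53 in low serum MDA-MB-436. COL14A1 rose from 20.5 and 20.4 to 133 and 142 CPM in low serum (log2 fold change 2.74 ± 0.07, adjusted p = 1.96e-31) and from 14.98 and 15.6 to 38.7 and 32.8 CPM in standard serum (log2 fold change 1.17 ± 0.11, adjusted p = 3.77e-07). COL9A3, a chain of the cartilage collagen IX, rose from 0.337 and 0.210 to 6.67 and 7.13 CPM in low serum (log2 fold change 4.60 ± 0.26, adjusted p = 9.72e-19), and in standard serum from 0.0592 and 0.179 to 0.977 and 1.23 CPM (log2 fold change 3.06 ± 0.45, adjusted p = 2.05e-05). Its partner COL9A2 was called in low serum only, at 1.22 and 1.05 and 2.88 and 2.15 CPM (log2 fold change 1.14 ± 0.22, adjusted p = 3.64e-05), and not without 7TGP-POS replicate 1 (log2 fold change 0.83).

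COL16A1 and COL22A1 fell in MDA-MB-436 7TGP-POS. COL16A1, found in skin and cartilage at the edges of fibrils and basement membranes, was at 427 and 396 CPM in 7TGP-NEG and 89.9 and 104 CPM in 7TGP-POS in low serum (log2 fold change -2.10 ± 0.07, adjusted p = 6.46e-17). The standard serum values of COL16A1 were 384 and 403 and 76.1 and 89.3 CPM (log2 fold change -2.31 ± 0.10, adjusted p = 1.03e-11). Its TPM went from 134 ± 15 to 26.4 ± 4.50 in low serum. COL22A1 was at 45.9 and 43.9 and 3.57 and 4.30 CPM in low serum (log2 fold change -3.53 ± 0.11, adjusted p = 6.23e-28). The standard serum values of COL22A1 were 86.7 and 88.4 and 4.41 and 3.90 CPM (log2 fold change -4.45 ± 0.11, adjusted p = 2.82e-14). Both genes stayed above all MDA-MB-231 libraries even in 7TGP-POS.

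Transmembrane, short-chain and multiplexin members also rose in MDA-MB-436, all from low levels. COL13A1 went from 1.01 and 0.873 to 8.53 and 8.56 CPM in low serum (log2 fold change 3.16 ± 0.13, adjusted p = 8.29e-23) and from 0.0888 and 0.485 to 7.21 and 7.55 CPM in standard serum (log2 fold change 4.54 ± 0.27, adjusted p = 2.76e-07), still far under the MDA-MB-231 libraries. COL8A1 went from 6.49 and 6.84 to 27.2 and 26.5 CPM in low serum (log2 fold change 2.00 ± 0.08, adjusted p = 5.07e-24) and from 2.40 and 2.32 to 10.5 and 9.41 CPM in standard serum (log2 fold change 2.02 ± 0.12, adjusted p = 1.27e-10). Its partner chain COL8A2 rose as well, from 0.276 and 0.175 to 1.48 and 1.15 CPM (log2 fold change 2.50 ± 0.39, adjusted p = 8.6e-07) and from 0.207 and 0.102 to 1.15 and 0.988 CPM (log2 fold change 2.75 ± 0.39, adjusted p = 1.36e-05). COL25A1, a neuronal transmembrane collagen, rose in low serum from 2.69 and 1.85 to 10.6 and 12.7 CPM (log2 fold change 2.32 ± 0.16, adjusted p = 2.4e-16), and in standard serum it was at 1.48 and 1.63 and 2.11 and 1.65 CPM, not called (log2 fold change 0.22 ± 0.24, adjusted p = 0.469). COL15A1 rose from 1.90 and 1.78 to 5.47 and 5.23 CPM in low serum (log2 fold change 1.52 ± 0.18, adjusted p = 2.73e-09) and from 0.948 and 1.15 to 2.58 and 2.41 CPM in standard serum (log2 fold change 1.19 ± 0.23, adjusted p = 0.000315). COL26A1, which belongs to none of the main classes, rose from 1.16 and 0.629 to 9.89 and 9.56 CPM in low serum (log2 fold change 3.40 ± 0.19, adjusted p = 1.17e-18) and from 1.33 (both) to 5.60 and 6.64 CPM in standard serum (log2 fold change 2.14 ± 0.20, adjusted p = 2.71e-07). For each of these genes the 7TGP-POS libraries lay above the 7TGP-NEG libraries wherever the gene was called.

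The abundant type VI chains rose less. COL6A1 was at 196 and 189 CPM in 7TGP-NEG and 379 and 421 CPM in 7TGP-POS in low serum (log2 fold change 1.04 ± 0.05, adjusted p = 6.12e-21), a call lost without 7TGP-POS replicate 2 (log2 fold change 0.94). COL6A2 was at 271 (both) and 439 and 490.1 CPM and stayed under a fold of 2 (log2 fold change 0.77 ± 0.05, adjusted p = 6.06e-17). In standard serum COL6A1 was at 174 and 204 and 238 and 334 CPM (log2 fold change 0.54 ± 0.15, adjusted p = 0.0198) and COL6A2 at 232 and 281 and 221 and 340.4 CPM (log2 fold change 0.07 ± 0.21, adjusted p = 0.826), neither called. COL18A1, the multiplexin whose end fragment is endostatin, was also under a fold of 2, with a log2 fold change 0.73 ± 0.05, adjusted p = 1.24e-16 in low serum and a log2 fold change 0.43 ± 0.25, adjusted p = 0.234 at standard serum. COL7A1 rose in low serum from 104 and 94.4 to 234 and 326 CPM (log2 fold change 1.48 ± 0.20, adjusted p = 0.00371), and in standard serum it had a log2 fold change 0.91 ± 0.20, adjusted p = 0.0122. Among members near the floor, COL6A3, COL6A6 and COL28A1 were called in low serum with no more than 3 counts in any 7TGP-NEG library. They were at least 3.23-fold, 1.60-fold and 2.90-fold higher in 7TGP-POS. COL6A6 had only 2 and 7 counts in 7TGP-POS, so its bound rests on replicate 2. COL4A4 had 0.643 and 0.349 and 1.26 and 1.04 CPM (log2 fold change 1.18 ± 0.33, adjusted p = 0.00263).

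In standard serum the replicates of MDA-MB-436 7TGP-POS differed by base composition, which bears on the GC-rich members. Over the 19 members compared, the log2 ratio of replicate 1 to replicate 2 fell with transcript GC content (Pearson r = -0.87, a description over genes of 1 library pair), and over 10577 genes r was -0.71. COL18A1, with 67.2% GC, was at 173 and 270.3 CPM in these libraries, while COL12A1, with 46.3% GC, was at 186 and 159.7. The median GC content was 54.8% over the 44 members and 48.4% over all genes tested in low serum. In the other 7 groups r over the members was between -0.43 and 0.62, and over all genes compared it was between -0.21 and 0.41. The 0.41 was in low serum MDA-MB-231 7TGP-POS, where r over the members was 0.54. The part of base composition in the calls was not tested beyond the fits without each library.

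Whether the change differed between the lines was tested as the MDA-MB-231 change minus the MDA-MB-436 change. Culture medium differed between the lines as well. In low serum 19 of 42 members differed, against 11.7% of all genes tested, with 5 more positive in MDA-MB-231 (background 4.72%) and 14 more positive in MDA-MB-436 (background 7.01%). In standard serum 14 of 40 differed, against 13.8% of all genes, with 6 more positive in MDA-MB-231 (7.02%) and 8 more positive in MDA-MB-436 (6.81%). COL4A5, COL4A6 and COL16A1 were more positive in MDA-MB-231 in both conditions. COL3A1, COL5A2, COL6A3, COL8A1, COL8A2, COL9A3, COL12A1 and COL13A1 were more positive in MDA-MB-436 in both. For COL4A5 the difference was 2.48 ± 0.09 (log2, SE, adjusted p = 1.93e-24) in low serum and 3.76 ± 0.14 (log2, SE, adjusted p = 7.19e-13) in standard serum, and for COL12A1 it was -1.93 ± 0.09 (log2, SE, adjusted p = 9.15e-18) and -2.66 ± 0.19 (log2, SE, adjusted p = 4.44e-06).

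No member was called in all 4 comparisons, 2 were called in 3, 17 in 2, 9 in 1 and 16 in none, which includes the 2 that were not tested. Over the 16197 genes tested in at least 1 serum condition, these shares were 0.691% in 4, 1.74% in 3, 8.27% in 2, 11.0% in 1 and 78.3% in none. COL6A3 was called in both directions, lower in MDA-MB-231 and higher in low serum MDA-MB-436, where its highest value was only 0.348 CPM. By adjusted p alone, without the fold, COL4A5, COL4A6, COL8A1, COL7A1 and COL12A1 were higher in 7TGP-POS in all 4 comparisons, as were 2.52% of the genes tested in all 4. That looser rule holds for 38.9% and 33.0% of all genes in MDA-MB-231 in low and standard serum, and for 52.0% and 49.5% in MDA-MB-436, counting both directions. For COL8A1 the MDA-MB-231 values were 206 and 204 and 385 and 398 CPM in low serum (log2 fold change 0.94 ± 0.05, adjusted p = 2.76e-19). In standard serum MDA-MB-231 they were 523 and 497 and 820.4 and 789 CPM (log2 fold change 0.60 ± 0.08, adjusted p = 6.05e-06). The 16 members with no call were COL1A2, COL2A1, COL5A1, COL27A1, COL4A1, COL4A2, COL4A3, COL6A2, COL6A5, COL10A1, COL9A1, COL19A1, COL21A1, COL17A1, COL23A1 and COL18A1. Of these, COL5A1, COL4A1, COL4A2, COL6A2 and COL18A1 are among the most abundant collagens of the cells.

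The enzymes that build collagen were taken from a list of 30 genes, all of them tested, which covers proline and lysine hydroxylases, chaperones, procollagen proteinases and crosslinking oxidases. In MDA-MB-231, 5 rose in low serum, and 4 rose and 1 fell in standard serum, beside 3.50% of all genes rising in low serum and 4.96% rising and 2.72% falling in standard serum. In MDA-MB-436, 5 rose and 2 fell in low serum (6.52% and 4.03% of all genes), and 5 rose and 3 fell in standard serum (6.47% and 6.06%). The list medians were 0.21 and -0.028 in MDA-MB-231 and -0.085 and -0.22 in MDA-MB-436, in low and standard serum.

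The 5 lysyl oxidases of the list crosslink collagen outside the cell. In MDA-MB-436, LOXL1 was at 0.0918 and 0 CPM in low serum 7TGP-NEG and 12.7 and 14.1 CPM in 7TGP-POS, at least 136-fold higher. LOXL1 in standard serum was at 0 (both) and 6.30 and 9.06 CPM, at least 92.8-fold. LOX rose there from 2.76 and 2.69 to 11.7 and 11.6 CPM in low serum (log2 fold change 2.08 ± 0.11, adjusted p = 3.45e-19) and from 3.14 and 3.01 to 9.40 and 10.5 CPM in standard serum (log2 fold change 1.63 ± 0.11, adjusted p = 7.35e-10). LOXL4 rose from 19.2 and 20.8 to 118 and 115 CPM (log2 fold change 2.54 ± 0.06, adjusted p = 7.39e-31) and from 17.3 and 17.5 to 95.0 and 110.0 CPM (log2 fold change 2.50 ± 0.08, adjusted p = 8.92e-14). All 3 were abundant in MDA-MB-231 7TGP-NEG already, where LOXL1 fell in standard serum from 26.7 and 25.7 to 9.28 and 9.62 CPM (log2 fold change -1.53 ± 0.14, adjusted p = 7.76e-07). In low serum MDA-MB-231 LOXL1 was at 43.8 and 48.4 and 23.0 and 23.4 CPM, just under a fold of 2 (log2 fold change -0.98 ± 0.08, adjusted p = 1.02e-13). LOXL2, at 101 and 104 and 74.5 and 73.8 CPM in low serum MDA-MB-436, was not called (log2 fold change -0.48 ± 0.05, adjusted p = 2.05e-10). LOXL3 was at 10.2 and 10.0 and 4.49 and 5.91 CPM there, just under a fold of 2 (log2 fold change -0.98 ± 0.13, adjusted p = 4.04e-08).

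Among the proteinases that trim procollagen, TLL1 rose in all 4 comparisons, from 0.130 and 0.134 to 0.434 and 0.353 CPM in low serum MDA-MB-231 (log2 fold change 1.56 ± 0.62, adjusted p = 0.0412) and from 0 (both) to 1.01 and 1.07 CPM in low serum MDA-MB-436, at least 10.6-fold. No library had more than 1.07 CPM of TLL1. PCOLCE2, an enhancer of the C-proteinases, rose in MDA-MB-436 (log2 fold change 1.91 ± 0.38, adjusted p = 3.86e-05 in low serum and log2 fold change 3.01 ± 0.35, adjusted p = 1.1e-06 in standard serum). The N-proteinase genes split by line. ADAMTS14 rose in low serum MDA-MB-231 from 0.196 and 0.534 to 10.7 and 7.48 CPM (log2 fold change 4.64 ± 0.30, adjusted p = 2.57e-10) and fell in standard serum MDA-MB-436 from 3.17 and 2.96 to 1.54 and 1.29 CPM (log2 fold change -1.16 ± 0.24, adjusted p = 0.000534). ADAMTS3 rose in MDA-MB-231 in both conditions (log2 fold change 1.25 ± 0.15, adjusted p = 2.21e-09 and log2 fold change 1.59 ± 0.23, adjusted p = 2.45e-05). ADAMTS2 fell in MDA-MB-436 in both, from 11.2 and 11.0 to 1.90 and 2.29 CPM in low serum (log2 fold change -2.42 ± 0.15, adjusted p = 3.79e-17). Of the hydroxylases, P4HA3 rose in MDA-MB-231 and fell in low serum MDA-MB-436, P3H2 rose in low serum MDA-MB-231, and P3H3 fell in standard serum MDA-MB-436. P4HA3 was at most 1.30 CPM in any library. Its low serum MDA-MB-436 libraries were at 0.643 and 0.559 CPM in 7TGP-NEG and 0.411 and 0.0716 CPM in 7TGP-POS.

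**Figure D5:**
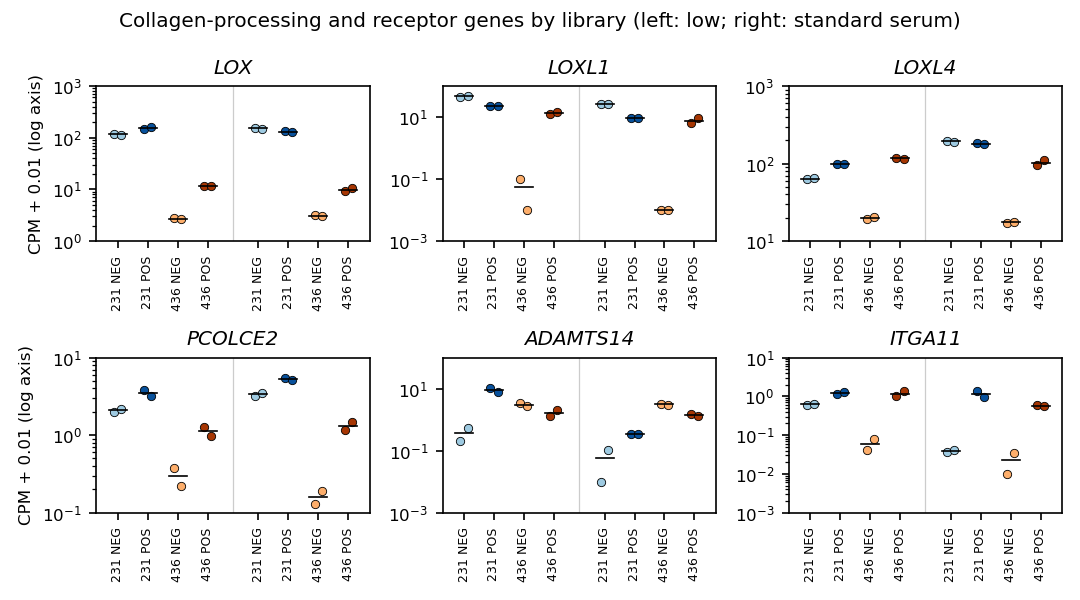
CPM (plus 0.01, log axis) of 5 collagen-processing genes and the receptor gene ITGA11 in each library, low serum at left and standard serum at right of the grey line, with black bars for group means. LOX, LOXL1 and LOXL4 are lowest in MDA-MB-436 7TGP-NEG and higher in the 7TGP-POS subline of that line, and ITGA11 is higher in 7TGP-POS of both lines.

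Of 7 collagen receptor genes, ITGA11, an integrin chain that binds fibrillar collagen, rose in all 4 comparisons. It was at 0.587 and 0.634 and 1.14 and 1.30 CPM in low serum MDA-MB-231 (log2 fold change 1.00 ± 0.32, adjusted p = 0.0115) and at 0.0306 and 0.0698 and 1.01 and 1.33 CPM in MDA-MB-436, at least 11.9-fold higher. In standard serum it was at least 13.1-fold higher in MDA-MB-231 and 6.86-fold in MDA-MB-436. ITGA1, whose integrin binds type IV collagen well, rose in 3 comparisons, from 191 and 190.1 to 521 and 541 CPM in low serum MDA-MB-231 (log2 fold change 1.49 ± 0.05, adjusted p = 4.49e-26). In standard serum MDA-MB-231 it went from 74.0 and 74.6 to 144 and 149.6 CPM, just under a fold of 2 (log2 fold change 0.93 ± 0.09, adjusted p = 1.38e-07). In MDA-MB-436 it also rose (log2 fold change 1.03 ± 0.08, adjusted p = 3.3e-14 in low serum, then log2 fold change 1.23 ± 0.12, adjusted p = 9.69e-08 in standard serum). ITGA2, the chain of the type I collagen integrin, fell in MDA-MB-436 from 70.1 and 68.5 to 32.8 and 35.0 CPM in low serum (log2 fold change -1.05 ± 0.06, adjusted p = 2.8e-19) and likewise in standard serum (log2 fold change -1.08 ± 0.10, adjusted p = 6.61e-07). The other receptor genes, ITGA10, ITGB1, DDR1 and DDR2, were not called in any of the 4 comparisons. DDR1 was just under a fold of 2 in low serum MDA-MB-436, at 46.3 and 47.8 and 90.4 and 99.3 CPM (log2 fold change 0.997 ± 0.058, adjusted p = 2.47e-18). ITGA10 was lower by less than a fold of 2 in low serum MDA-MB-231 7TGP-POS (log2 fold change -0.83 ± 0.06, adjusted p = 3.18e-11).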

How the data were processed

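Bulk RNA-Seq of 16 libraries was used, 2 biological replicates in each of 8 groups, grouped by the sample titles. The count values were made by the authors with STAR on hg19 and Gencode v19 genes (the submitters' processing notes list version 2.6.1a), and were deposited as whole counts per gene with no normalization. The TPM values were also deposited by the authors, and how they were computed is not given in the sources used here. According to the study's methods, low serum RNA was depleted of ribosomal RNA and standard serum RNA was selected for polyadenylated transcripts, while the labels name 1 kit for all libraries, so levels are set side by side within a serum condition only.

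Symbols, biotypes, GRCh37 coordinates and GC content came from Gencode v44 lifted to GRCh37, and promoter windows from RefSeq (GRCh38.p14), where 32 of the 44 collagen genes matched. Tests covered the protein-coding genes whose counts over the 8 libraries of a condition added up to 10 or more, 16069 in low and 15414 in standard serum. Counts were scaled with TMM factors and fitted per serum condition with 4 groups by edgeR's robust quasi-likelihood test, with Benjamini-Hochberg adjustment over all genes tested. Calls needed an adjusted p under 0.05 and a fold of 2 or more in either direction. The interaction is the MDA-MB-231 change minus the MDA-MB-436 change in the same model. Values after ± on fold changes are standard errors, obtained as the size of the log2 fold change over the root of F. If no library of a group had more than 3 counts, its fold is a lower bound, set against 3 counts in each library and covering counting error only. Neighbour medians used the 50 nearest tested genes that averaged 1 CPM or more.

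Alternatives were DESeq2, its size factors, no filter, filterByExpr, the replicate number as a block, limma-trend on log2(TPM + 1), prior counts of 1 and 5, and leaving out each library. The fits were tested on simulated data. Per-library values are given for called members with at least 5 CPM in a library of that serum condition, and for further members named after their values were seen. The members and the lists of classes, processing genes, receptors and markers were chosen with earlier results of these data known. The tools were limma 3.58.1, DESeq2 1.42.0 and edgeR 4.0.16 under R 4.3.3, with figures drawn in matplotlib 3.10.9 and tables made in pandas 2.3.3.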

Additional observations from a re-analysis of the deposited data

Results flagged for a closer look

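In low serum, the change from 7TGP-NEG to 7TGP-POS differed between the cell lines in the interaction test of edgeR for 19 members, which is why they are listed here. Values are the MDA-MB-231 change minus the MDA-MB-436 change, as log2 ± SE, and all adjusted p are at most 0.00858. The difference was above 0, with the MDA-MB-231 change the more positive, at 1.09 ± 0.07 for COL4A2, 2.48 ± 0.09 for COL4A5, 2.34 ± 0.15 for COL4A6, 2.19 ± 0.12 for COL16A1 and 3.59 ± 0.68 for COL22A1. It was below 0 at -3.87 ± 0.33 for COL3A1, -2.17 ± 0.24 for COL5A2, -2.54 ± 0.81 for COL24A1 and -1.54 ± 0.07 for COL6A1. Further negative values were -1.55 ± 0.07 for COL6A2, -4.42 ± 0.65 for COL6A3, -1.06 ± 0.09 for COL8A1 and -3.10 ± 0.45 for COL8A2. Others were -4.26 ± 0.43 for COL9A3, -1.93 ± 0.09 for COL12A1, -3.05 ± 0.58 for COL14A1 and -3.23 ± 0.14 for COL13A1. The remaining ones were -2.67 ± 0.51 for COL25A1 and -1.30 ± 0.39 for COL15A1. For COL6A3 the MDA-MB-436 7TGP-NEG libraries held 3 counts or fewer each, so its fitted difference is no bound. COL14A1, COL22A1, COL24A1 and COL25A1 had no more than 12 counts in any low serum MDA-MB-231 library. Their differences are mostly the MDA-MB-436 changes.

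In standard serum the same test marked 14 members. The adjusted p were at most 0.0223. The difference was above 0, with the MDA-MB-231 change the more positive, at 7.75 ± 2.22 for COL11A1, 1.73 ± 0.43 for COL11A2, 3.76 ± 0.14 for COL4A5, 3.23 ± 0.23 for COL4A6, 2.75 ± 0.17 for COL16A1 and 3.01 ± 0.58 for COL20A1. It was below 0 at -5.67 ± 0.88 for COL3A1, -2.22 ± 0.32 for COL5A2, -3.38 ± 0.76 for COL6A3 and -1.42 ± 0.14 for COL8A1. Further negative values were -3.17 ± 0.45 for COL8A2, -2.63 ± 0.88 for COL9A3, -2.66 ± 0.19 for COL12A1 and -5.17 ± 0.30 for COL13A1. For COL11A1 the MDA-MB-436 7TGP-NEG and 7TGP-POS libraries, and for COL6A3 the MDA-MB-436 7TGP-NEG libraries, held 3 counts or fewer each, so their fitted differences depend on the prior count. COL3A1 and COL9A3 had no more than 7 counts in any standard serum MDA-MB-231 library, so their differences are mostly the MDA-MB-436 changes.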

How the results depend on the processing

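The counts of calls stayed within 1.5 times of those reported under DESeq2, its size factors, no filter, filterByExpr and the replicate block. With limma-trend on log2(TPM + 1), which compresses low genes, low serum gave 13 collagen calls in MDA-MB-436, 14 cell line calls and 3 collagen-processing calls in MDA-MB-231. In standard serum it gave 16 cell line calls, and 1 and 5 collagen-processing calls in MDA-MB-231 and MDA-MB-436. Leaving out 1 library at a time gave 5 to 8 collagen calls in standard serum MDA-MB-231, the 8 without 7TGP-POS replicate 1, and moved no other count by over 1.5 times. Of 37 calls of collagens that reached 5 CPM in a library of either line, 30 kept their call under every setting, 7 lost it under at least 1 (COL7A1 in MDA-MB-231, COL9A2, COL6A3, COL15A1, COL1A1 and COL6A1 in low serum MDA-MB-436, and COL1A1 in standard serum MDA-MB-436), and 0 changed direction.

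Replicate numbers did not pair the samples (correlation of same-numbered deviations -0.058 to 0.011 in low serum and 0.010 to 0.117 in standard serum). With the replicate block, 23 and 14 collagens were called in MDA-MB-436 in low and standard serum, and no call among the 37 changed. Dropping each group's member with the highest mean TPM lowered the summed TPM by more than its SD in 8 of 8 groups. In standard serum MDA-MB-231 it also set both 7TGP-POS libraries above both 7TGP-NEG libraries. Members with few counts, such as COL2A1 in both lines and COL19A1 in MDA-MB-436, have errors that allow changes above a fold of 2, and 2 libraries per group limit every error.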
